A study of Mus musculus with 10 samples.

Results

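The genes described here encode the subunits of mitochondrial complexes I to V, the respiratory chain with ATP synthase, that are read from nuclear chromosomes. They were taken from the deposited gene table by biotype and symbol: rows listed as protein-coding whose symbol starts with Ndufa, Ndufb, Ndufc, Ndufs or Ndufv and a number, is one of Sdha to Sdhd, or starts with Uqcr, with Cox4 to Cox8, or with Atp5. The rule found 88 of 57825 listed genes, with 37 in complex I, 4 in complex II, 8 in complex III, 21 in complex IV and 18 in complex V. Ndufa4 and Ndufa4l2 were counted in complex IV, where the Ndufa4 protein is now known to sit. The label was checked against the table, and no member is listed on the mitochondrial chromosome. The entry Cox5b-ps is listed as protein-coding although its name is that of a pseudogene, and Atp5o has a second entry (ENSMUSG00000116933) that was listed at 0 in every sample.

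In the respiratory chain, electrons from NADH enter at complex I and those from succinate at complex II, pass over coenzyme Q to complex III and over cytochrome c to complex IV, where oxygen is reduced. Complexes I, III and IV pump protons, and complex V, the ATP synthase, uses the proton gradient to make ATP. Most subunits are encoded in the nucleus and must be matched with the few made inside the mitochondrion, and several subunits exist in forms named after muscle, lung or testis. Activated CD8+ T cells are known to enlarge their mitochondrial content when they start to divide.

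CD8+ T cells were isolated from spleens of female Balb/c mice, which the methods give as 7 to 8 weeks old. They were activated for 12 h with plate-bound anti-CD3, anti-CD28 and IL-2, kept for 24 h without or with 5 mM sodium acetate (NaAc), and co-cultured for 48 h with 4T1, a mouse mammary carcinoma cell line. RNA of the purified CD8+ T cells was sequenced in 2 groups of 5 samples labelled day 3, CD8+4T1 and CD8+4T1+NaAc, and the comparison asks how NaAc alters T cells that share activation and tumor cells. No label says which mice or cultures the samples came from, so p-values measure only the spread between these samples, which may be technical.

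Levels are in FPKM, which divides the fragments of a gene by its length and by the fragments of its sample, here between 16306447 and 18853726 fragments per sample. Replicate 1 stood apart in both groups. In CD8+4T1+NaAc it listed 20233 genes above 0, while its 4 fellow samples listed 24681 to 25088. Several results that rest on it, though not all, are given with and without it. In CD8+4T1 it listed 22291 genes, while the others listed 23786 to 24054, and its summed FPKM was the lowest of the group. The summed FPKM of all genes were 310965 to 335151 in CD8+4T1 and 282995 to 295928 in CD8+4T1+NaAc, so the scaling of the samples bears on every fold change. Recovered fragments in listed genes made up 95.5% to 97.9% of the fragments scaled to in CD8+4T1 and 89.8% to 92.1% in CD8+4T1+NaAc, without overlap, and the part of this difference in the members' values was not tested. The 12 T cell genes checked were present in all samples and summed to 976 to 1088 FPKM in CD8+4T1 and 888 to 1028 FPKM in CD8+4T1+NaAc. Of them 6 were called lower (Cd3d -0.54, Cd3g -0.53, Cd3e -0.36, Lck -0.32, Cd2 -0.29 and Cd5 -0.27 on the log2 scale) and Zap70 higher, with 4 lower and 4 higher after rescaling to equal sums, and their part in the members' fall was not tested. The summed level of 15 epithelial genes that a tumor cell could contribute was 21.7 to 30.9 FPKM in CD8+4T1 and 77.9 to 185 FPKM in CD8+4T1+NaAc. Of the 8 tested, Krt8, Lcn2, Krt18, Cldn3 and Krt7 were called higher. The other 3, Sfn (log2 fold change -0.03), Cldn7 (-0.0027) and Epcam (0.41), were not called. Sfn had the highest level of the list in CD8+4T1, with a mean of 12.9 FPKM. The part of these epithelial genes in the results that follow was not tested. Of these samples it cannot be said whether fewer cells of a type or less RNA per cell lies behind a lower value. Markers of plasmacytoid dendritic cells summed to at most 0.431 FPKM and those of NK cells to at most 0.292 FPKM, with Siglech and Cd209d at 0 in every sample. Myeloid markers summed to 25.1 to 34.4 FPKM in CD8+4T1 and 25.9 to 29.8 FPKM in CD8+4T1+NaAc, with Lyz2 called higher among 3 tested (log2 fold change 0.96, limma adjusted p = 0.0328). B cell markers summed to 3.92 to 4.91 and 4.55 to 6.22 FPKM, with neither of the 2 tested called. The part of these cells in the results was not tested.

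Many subunit genes of the chain were lower in CD8+4T1+NaAc, in every complex, and most of these falls were smaller than 2-fold. Of the 88 members, 82 had a mean of at least 0.5 FPKM and were tested on log2(FPKM + 0.1) with limma, a linear model that borrows variance information between genes. With a Benjamini-Hochberg adjusted p under 0.05 over all 15710 genes tested, 52 of the 82 members (63.4%) were called lower, 0 higher, and 30 did not pass. Over all genes tested 19.0% were called lower and 17.6% higher. For the 7800 genes that averaged 5 FPKM or more, a level most members exceed, the shares were 31.7% lower and 16.1% higher, and 52 of 78 members were called lower and 0 higher in that fit. The median log2 fold change was -0.43 over the 82 members and -0.02 over all genes tested. Without adjustment, 58 members had a limma p under 0.05 as lower and 2, Cox7a2l and Ndufb9, as higher. No share over all genes is given for these unadjusted counts. On the recovered fragments limma's voom called 45 members lower and 4 higher, beside 2100 of all 15710 genes lower and 3990 higher.

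**Figure D1:**
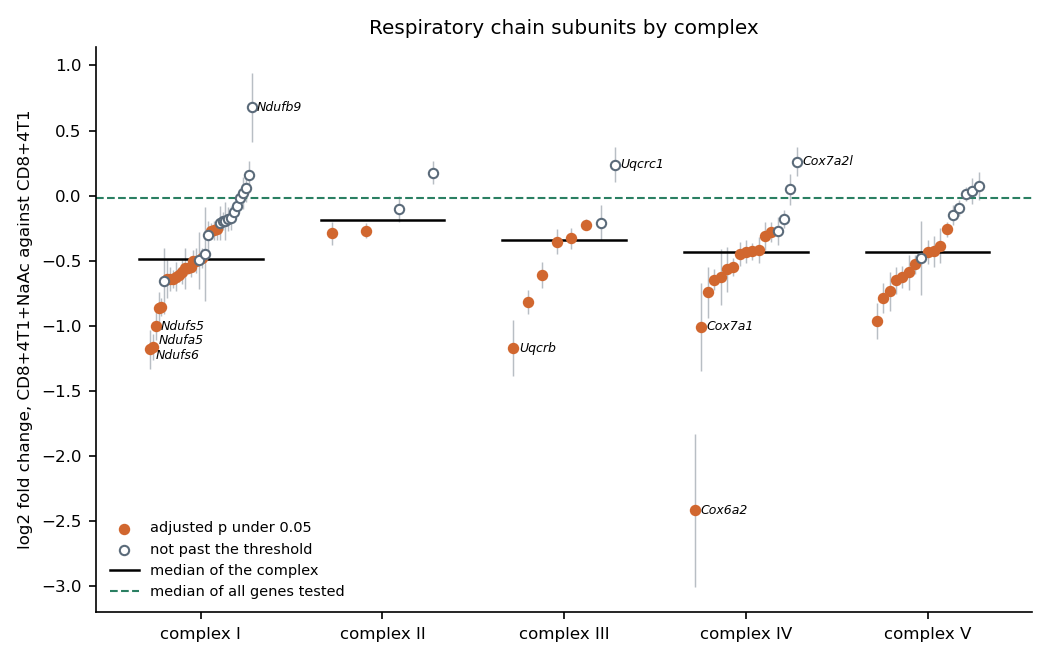
Log2 fold change of each tested subunit gene, CD8+4T1+NaAc against CD8+4T1 (vertical axis), grouped by complex and ordered by size, with bars for the standard error from limma (n = 5 per group). Filled points passed an adjusted p of 0.05, black lines are the medians of the complexes (-0.49, -0.19, -0.34, -0.43 and -0.43 for I to V), and the dashed line is the median of all genes tested, -0.02.

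In 36 of the 82 members tested, every CD8+4T1+NaAc sample was below every CD8+4T1 sample, and in 0 members was every one above, while 13.28% and 13.12% of all genes tested were separated in this way. The falls were modest: 6 of the called genes, Ndufs6, Ndufa5, Ndufs5, Uqcrb, Cox6a2 and Cox7a1, had a log2 fold change below -1. The median deviation of the tested members from their mean over all samples was 0.02 to 0.30 on the log2 scale in the CD8+4T1 samples and -0.28 to -0.10 in the CD8+4T1+NaAc samples. Members held 1.03% to 1.2% of the fragments in listed genes in CD8+4T1 and 0.904% to 0.999% in CD8+4T1+NaAc. Neither range overlapped between the groups.

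Scaling changed how many members passed. When all samples were brought to one summed FPKM, the median of all genes tested moved from -0.02 to 0.15 and that of the members from -0.43 to -0.25. In that fit 35 members were called lower and 6, Atp5g3, Cox7a2l, Ndufa11, Ndufb9, Sdhc and Uqcrc1, higher, beside 8.83% of all genes called lower and 31.2% called higher. Without CD8+4T1 replicate 1, 54 members were called lower and 0 higher. Without CD8+4T1+NaAc replicate 1, 50 members were called lower and 4 higher (Cox7a2l, Ndufb9, Sdhc and Uqcrc1). Removing replicate 1 of both groups, a choice made after the data were seen, gave 55 lower and 5 higher, with Ndufs1 added. Of all 15710 genes these fits called, in the order given, 2772, 3557 and 3554 lower and 2610, 3408 and 3427 higher. With all samples 2978 genes were called lower and 2764 higher, so calls over all genes also rose without CD8+4T1+NaAc replicate 1.

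**Figure D2:**
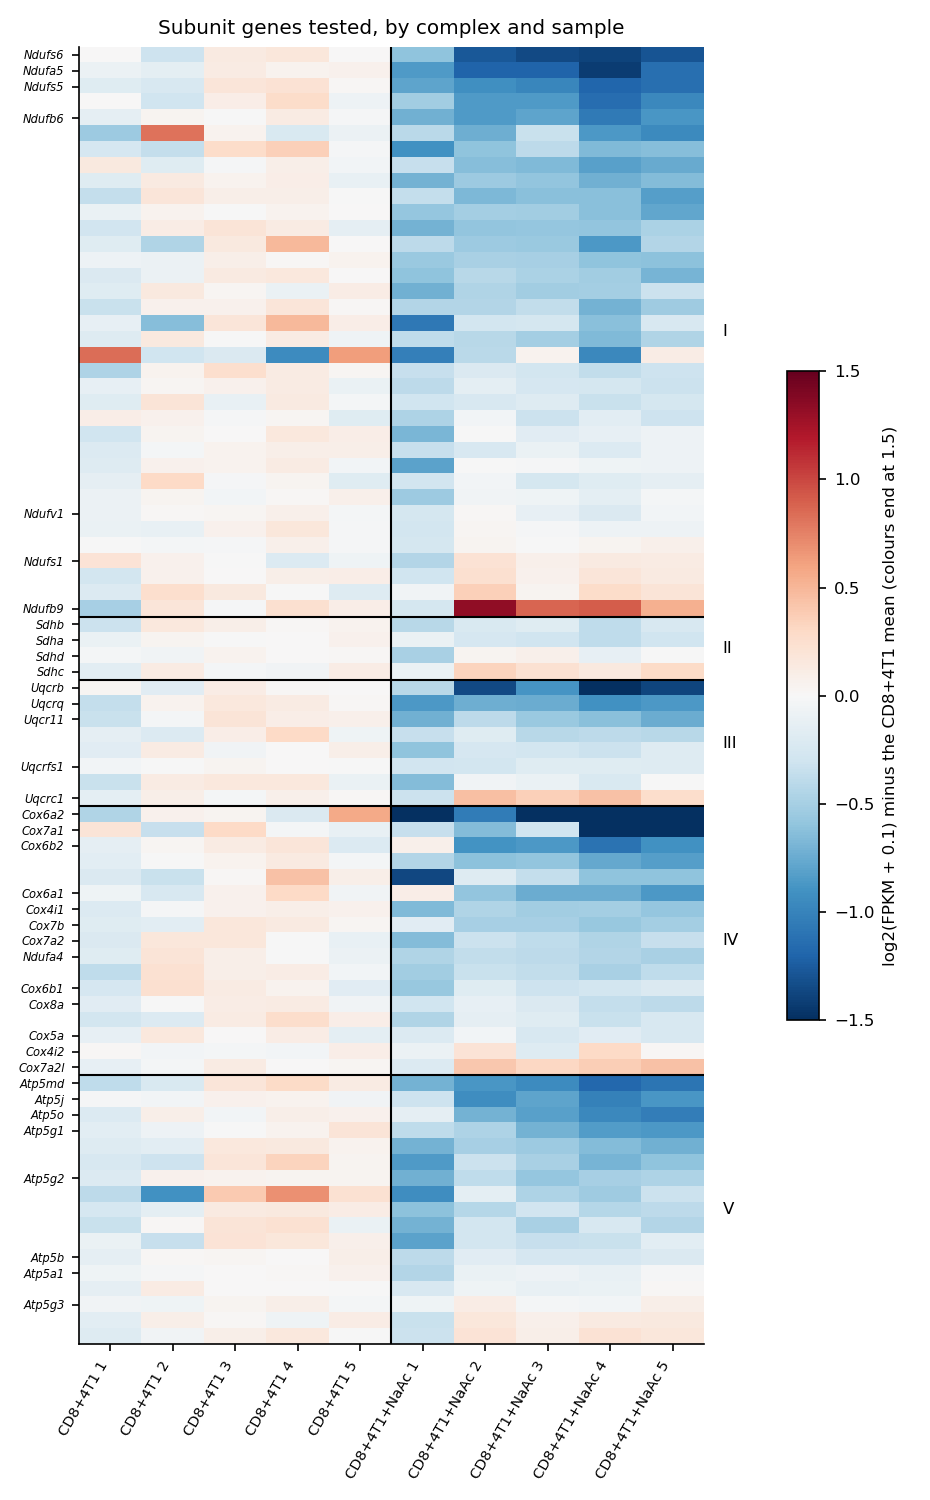
Heat map of log2(FPKM + 0.1) minus the CD8+4T1 mean for the 82 tested subunit genes (rows, ordered by complex and fold change) in each of the 10 samples (columns), with symbols for the genes described in the text. Blue is lower and red is higher, and the 5 CD8+4T1+NaAc columns are mostly blue in complexes I, III, IV and V and mixed in complex II. Ndufb9, Sdhc, Uqcrc1 and Cox7a2l are red in replicates 2 to 5 of CD8+4T1+NaAc and not in replicate 1.

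Complex I, the NADH dehydrogenase, had 20 of 36 tested genes called lower and 0 higher, with a median log2 fold change of -0.49. Rescaled to equal sums, it had 16 called lower and 2 higher, with a median of -0.31. The largest falls were in Ndufs6, Ndufa5 and Ndufs5, accessory subunits that surround the catalytic core. Ndufs6 (ENSMUSG00000021606, chromosome 13) had 83.6, 67.2, 91.9, 94 and 83.9 FPKM in the CD8+4T1 samples and 55.1, 34.7, 32.6, 31.8 and 34.1 FPKM in the CD8+4T1+NaAc samples. The groups did not overlap, and CD8+4T1+NaAc replicate 1 was the highest of its group (log2 fold change -1.18, SE 0.15, limma adjusted p = 0.000202). Ndufa5 (ENSMUSG00000023089, chromosome 6) had 70.9, 68, 82.2, 78.4 and 78.8 FPKM in the CD8+4T1 samples and 41.8, 32.7, 32.8, 28.1 and 34.3 FPKM in the CD8+4T1+NaAc samples. Every CD8+4T1+NaAc value was below the lowest CD8+4T1 value (log2 fold change -1.16, SE 0.10, limma adjusted p = 2.22e-05). Ndufs5 (ENSMUSG00000028648, chromosome 4) had mean levels of 115 ± 16.4 FPKM without and 57.2 ± 6.46 FPKM with NaAc (SD, n = 5 each), again with no overlap (log2 fold change -1.0, SE 0.11, limma adjusted p = 7.30e-05). Ndufb6, a small membrane-arm subunit named after its values were seen, had mean levels of 145 ± 9.44 FPKM without and 80.4 ± 6.91 FPKM with NaAc (SD, n = 5 each) with no overlap (log2 fold change -0.86, SE 0.07, limma adjusted p = 2.17e-05).

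The catalytic subunits Ndufs1 and Ndufv1 of complex I did not pass the test. Ndufs1, the largest core subunit, had 8.84, 7.97, 7.59, 6.59 and 7.31 FPKM in the CD8+4T1 samples and 5.61, 8.86, 8.02, 8.41 and 8.31 FPKM in the CD8+4T1+NaAc samples. These groups overlapped, and the lowest value was that of CD8+4T1+NaAc replicate 1 (log2 fold change 0.02, SE 0.12, limma adjusted p = 0.907). Without that sample the log2 fold change of Ndufs1 was 0.14 (limma adjusted p = 0.185). Ndufv1, which binds NADH, had mean levels of 36.2 ± 1.57 FPKM without and 33.2 ± 2.71 FPKM with NaAc (SD, n = 5 each) (log2 fold change -0.13, SE 0.06, limma adjusted p = 0.127). Ndufs7, an iron-sulfur subunit of the core named after its values were seen, was called lower (log2 fold change -0.26, SE 0.08, limma adjusted p = 0.0316). Its call held in 4 of 10 fits with 1 sample left out, was lost without CD8+4T1 replicate 1, 2, 3 or 4 or CD8+4T1+NaAc replicate 3 or 5, and was lost on rescaling to equal sums (-0.08, limma adjusted p = 0.475). No count over the core subunits is given.

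Ndufb9, another accessory subunit, had the highest fold change of all members and was named after its values were seen. It had 15.5, 25, 21.6, 25.8 and 23.5 FPKM in the CD8+4T1 samples and 18.3, 55.5, 40.3, 41.3 and 31.8 FPKM in the CD8+4T1+NaAc samples. Replicates 2 to 5 of CD8+4T1+NaAc were all above the CD8+4T1 samples, and replicate 1 was within them (log2 fold change 0.68, SE 0.27, limma adjusted p = 0.0693). Without that replicate the log2 fold change was 0.91 (limma adjusted p = 0.00324). Ndufa12 could not be judged, because 66.1% of the fragments assigned to it or its listed pseudogene lay in the pseudogene.

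**Figure D3:**
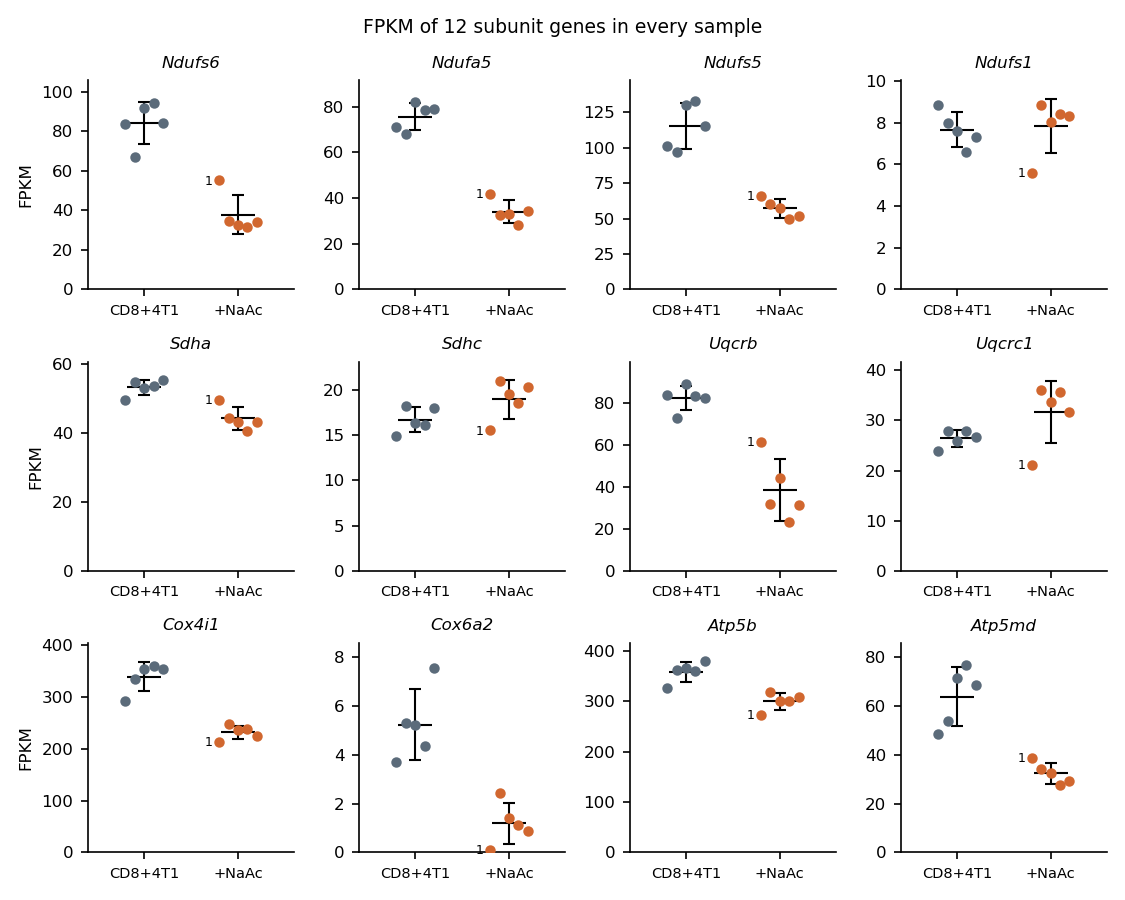
FPKM of 12 subunit genes in every sample (vertical axes start at 0), with points for samples and bars for mean and SD (n = 5). The point marked 1 is CD8+4T1+NaAc replicate 1, which lies nearest to the CD8+4T1 samples for Ndufs6, Ndufa5, Ndufs5, Uqcrb, Atp5md and Sdha and is lowest of its group for Ndufs1, Sdhc, Uqcrc1, Cox4i1, Cox6a2 and Atp5b.

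Complex II, succinate dehydrogenase, had the smallest median, -0.19 over 4 genes, with 2 called lower and 0 higher, and none with separated groups. It is built from nuclear genes alone and also works in the TCA cycle. The flavin-binding subunit Sdha had 49.5, 54.7, 52.9, 53.5 and 55.4 FPKM in the CD8+4T1 samples and 49.6, 44.5, 43.2, 40.7 and 43.1 FPKM in the CD8+4T1+NaAc samples. The groups overlapped through CD8+4T1 replicate 1 and CD8+4T1+NaAc replicate 1 (log2 fold change -0.27, SE 0.06, limma adjusted p = 0.0041). The iron-sulfur subunit Sdhb had 33.5, 46.7, 44.5, 42.4 and 43.2 FPKM in the CD8+4T1 samples and 31.4, 35.6, 36.8, 32 and 35.4 FPKM in the CD8+4T1+NaAc samples and also overlapped (log2 fold change -0.29, SE 0.09, limma adjusted p = 0.0247). Its call held in 5 of 10 fits that each left out 1 sample, and in the other 5 the limma adjusted p was between 0.0505 and 0.0611 (without CD8+4T1 replicate 2, 3, 4 or 5 or CD8+4T1+NaAc replicate 4). Both membrane anchors did not pass: Sdhd had mean levels of 90.2 ± 2.56 FPKM without and 84.8 ± 12.4 FPKM with NaAc (SD, n = 5 each) (log2 fold change -0.10, SE 0.10, limma adjusted p = 0.442), and Sdhc had mean levels of 16.7 ± 1.39 FPKM without and 18.9 ± 2.14 FPKM with NaAc (SD, n = 5 each) (log2 fold change 0.18, SE 0.09, limma adjusted p = 0.139). Without CD8+4T1+NaAc replicate 1, Sdhd was at -0.0054 (limma adjusted p = 0.937) and Sdhc reached 0.25 (limma adjusted p = 0.0125). After rescaling to equal sums neither Sdha (-0.09, limma adjusted p = 0.242) nor Sdhb (-0.11, limma adjusted p = 0.258) was called. In that fit the median of complex II was -0.0082, and Sdhc was called higher (0.35, limma adjusted p = 0.0045).

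Complex III, the cytochrome bc1 complex, had 6 of 8 genes called lower and 0 higher, with a median of -0.34. Rescaled to equal sums, it had 3 called lower and 1 higher, with a median of -0.16. The 3 largest falls were in small subunits without a redox center. Uqcrb (ENSMUSG00000021520, chromosome 13), which lies near the coenzyme Q site, had 83.8, 72.9, 88.9, 83.1 and 82.2 FPKM in the CD8+4T1 samples and 61.3, 32, 44.3, 23.2 and 31.5 FPKM in the CD8+4T1+NaAc samples. The CD8+4T1+NaAc samples ranged widely, all below the CD8+4T1 samples (log2 fold change -1.17, SE 0.22, limma adjusted p = 0.00186). Uqcrq (ENSMUSG00000044894, chromosome 11) had 107, 142, 153, 149 and 138 FPKM in the CD8+4T1 samples and 75.2, 82.4, 81.8, 73 and 75.4 FPKM in the CD8+4T1+NaAc samples (log2 fold change -0.82, SE 0.09, limma adjusted p = 9.17e-05). Uqcr11 had mean levels of 88.5 ± 11.7 FPKM without and 57.8 ± 5.82 FPKM with NaAc (SD, n = 5 each) (log2 fold change -0.61, SE 0.10, limma adjusted p = 0.000927), and 7.73% of the fragments of this gene and its listed pseudogenes lay in the pseudogenes.

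The Rieske iron-sulfur protein Uqcrfs1, a catalytic subunit of complex III, fell, with mean levels of 125 ± 2.42 FPKM without and 107 ± 3.83 FPKM with NaAc (SD, n = 5 each) (log2 fold change -0.22, SE 0.04, limma adjusted p = 0.00182). Its groups did not overlap, since the 5 samples of each group lay close together. After rescaling to equal sums it was not called (log2 fold change -0.05, limma adjusted p = 0.429). Uqcrc1, a large core protein, had 23.8, 28, 25.8, 27.8 and 26.7 FPKM in the CD8+4T1 samples and 21.1, 36, 33.7, 35.7 and 31.7 FPKM in the CD8+4T1+NaAc samples. For this gene replicates 2 to 5 of CD8+4T1+NaAc were above all CD8+4T1 samples and replicate 1 was below them (log2 fold change 0.24, SE 0.13, limma adjusted p = 0.193; without replicate 1 0.38, limma adjusted p = 0.000642). The catalytic cytochrome c1 gene Cyc1, which the rule does not take, had a log2 fold change of 0.15 (limma adjusted p = 0.175). Ndufab1, an acyl carrier protein of complex I that the rule does not take either, fell by 0.45 on the log2 scale (limma adjusted p = 0.00298). After rescaling to equal sums Ndufab1 was the 1 of these 2 genes called lower, and Cyc1 the 1 called higher.

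Complex IV, cytochrome c oxidase, had 13 of 17 tested genes called lower and 0 higher, with a median of -0.43. Rescaled to equal sums, it had 8 called lower and 1 higher, with a median of -0.25. Cox6a2 (ENSMUSG00000030785, chromosome 7), the form of subunit VIa named for heart and muscle, had the largest fall of all members. It had 3.70, 5.31, 5.23, 4.37 and 7.57 FPKM in the CD8+4T1 samples and 0.0860, 2.42, 1.43, 1.13 and 0.886 FPKM in the CD8+4T1+NaAc samples. The groups did not overlap (log2 fold change -2.42, SE 0.59, limma adjusted p = 0.00868). These values rest on 42 to 85 fragments in CD8+4T1 and on 1, 31, 16, 13 and 10 fragments in CD8+4T1+NaAc replicates 1 to 5. Without replicate 1 the log2 fold change was -1.82 (limma adjusted p = 0.000656). Of 4 other muscle genes tested, Tnnt2 and Actn2 were called higher, and Myh6 (-0.29) and Myh7 (-0.14) were not called. Cox7a1, the muscle form of another subunit described further on, was called lower. Ckm and Mb were at most 0.187 and 0.0711 FPKM.

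Cox4i1, the regulatory subunit IV that every tissue uses, had 293, 335, 353, 360.4 and 354 FPKM in the CD8+4T1 samples and 214, 247, 236, 237 and 225 FPKM in the CD8+4T1+NaAc samples. The groups were far apart relative to their spread (log2 fold change -0.55, SE 0.07, limma adjusted p = 0.000171). Cox6a1, the general form of subunit VIa and the member with the highest level, had 508, 448, 554, 652 and 512 FPKM in the CD8+4T1 samples and 569.9, 353, 317, 317 and 292 FPKM in the CD8+4T1+NaAc samples. CD8+4T1+NaAc replicate 1 lay among the CD8+4T1 samples and the other 4 below all of them (log2 fold change -0.57, SE 0.17, limma adjusted p = 0.0253; without replicate 1 -0.73, limma adjusted p = 0.000268). The call held in 4 of 10 fits that each left out 1 sample, and in the other 6 (without CD8+4T1 replicate 3 or 4, or CD8+4T1+NaAc replicate 2, 3, 4 or 5) the limma adjusted p was between 0.0505 and 0.0607. Cox5a, another small nuclear subunit, had mean levels of 48.3 ± 4.57 FPKM without and 42.5 ± 2.57 FPKM with NaAc (SD, n = 5 each) (log2 fold change -0.18, SE 0.07, limma adjusted p = 0.065). Among the small subunits Cox7b (-0.45), Cox8a (-0.28), Cox6b1 (-0.31) and Ndufa4 (-0.43) were called lower. After rescaling to equal sums Cox6a1 (-0.39, limma adjusted p = 0.101), Cox8a (-0.10, 0.216) and Cox6b1 (-0.13, 0.283) of the genes in this paragraph lost their calls. Cox6b1 kept its call in 3 of 10 fits with 1 sample left out and had a limma adjusted p between 0.0501 and 0.0902 in the other 7, without CD8+4T1 replicate 2, 3 or 4 or CD8+4T1+NaAc replicate 1, 3, 4 or 5.

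Complex V, the ATP synthase, had 11 of 17 tested genes called lower and 0 higher, with a median of -0.43. Rescaled to equal sums, it had 8 called lower and 1 higher, with a median of -0.25. Atp5md (ENSMUSG00000071528, chromosome 19), a small subunit of the membrane part that helps enzyme dimers to form, had 48.4, 53.6, 71.5, 76.9 and 68.7 FPKM in the CD8+4T1 samples and 38.6, 34.2, 32.5, 27.7 and 29.3 FPKM in the CD8+4T1+NaAc samples. The groups did not overlap (log2 fold change -0.96, SE 0.14, limma adjusted p = 0.000366). Atp5j (ENSMUSG00000022890, chromosome 16), the coupling factor 6 of the peripheral stalk, had 64.6, 63.3, 68.6, 67.8 and 62.9 FPKM in the CD8+4T1 samples and 52.9, 34.3, 37.8, 32.3 and 35.7 FPKM in the CD8+4T1+NaAc samples. All CD8+4T1+NaAc samples were below the CD8+4T1 samples, replicate 1 least so (log2 fold change -0.78, SE 0.11, limma adjusted p = 0.000441). Atp5o, the stalk subunit that confers sensitivity to oligomycin, had mean levels of 66.5 ± 5.64 FPKM without and 40.9 ± 11.3 FPKM with NaAc (SD, n = 5 each), and its replicate 1 of CD8+4T1+NaAc lay within the CD8+4T1 range (log2 fold change -0.73, SE 0.15, limma adjusted p = 0.00329). Without CD8+4T1+NaAc replicate 1 the log2 fold change of Atp5o was -0.88 (limma adjusted p = 3.69e-05).

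The 5 genes of the catalytic head of ATP synthase (Atp5a1, Atp5b, Atp5c1, Atp5d and Atp5e, grouped after the values were seen) had a median of -0.15 with 2 called lower. The rest of the complex had a median of -0.50 with 9 of 12 called lower, and the difference was not tested. After rescaling to equal sums the median of the head was 0.03 with 1 called lower, and that of the rest was -0.33 with 7 called lower and 1 higher. Without CD8+4T1+NaAc replicate 1 the median was -0.08 for the head and -0.43 for the rest. The catalytic beta subunit Atp5b had 326, 362, 366, 359.9 and 379 FPKM in the CD8+4T1 samples and 273, 318, 299.9, 299.7 and 307 FPKM in the CD8+4T1+NaAc samples, with no overlap (log2 fold change -0.26, SE 0.06, limma adjusted p = 0.00564), and was not called after rescaling to equal sums (-0.08, limma adjusted p = 0.207). The alpha subunit Atp5a1 had mean levels of 255 ± 8.11 FPKM without and 231 ± 24.9 FPKM with NaAc (SD, n = 5 each) (log2 fold change -0.15, SE 0.08, limma adjusted p = 0.147). Without CD8+4T1+NaAc replicate 1 the log2 fold change of Atp5a1 was -0.08 (limma adjusted p = 0.144). Atp5e, the epsilon subunit, was the other called gene of the head (log2 fold change -0.59, SE 0.14, limma adjusted p = 0.00598).

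Isoforms of one subunit can be compared within a sample, and such a share does not depend on how samples are scaled. Shares were taken of the summed FPKM of each family, and 6 were tested by an exact two-sided permutation test over samples, with Benjamini-Hochberg adjustment over the 6. Subunit c of the ATP synthase ring is encoded by Atp5g1, Atp5g2 and Atp5g3, which differ in their import peptides and give the same mature protein. The share of Atp5g2 was 46, 50.7, 48.7, 47.6 and 49% in the CD8+4T1 samples and 38, 41, 40.2, 41.9 and 40.6% in the CD8+4T1+NaAc samples. All CD8+4T1+NaAc samples were below all CD8+4T1 samples, with means of 48.4% ± 1.74 (SD, n = 5) in CD8+4T1 and 40.3% ± 1.45 (SD, n = 5) in CD8+4T1+NaAc (p = 0.00794, the smallest that 5 against 5 can give, adjusted p = 0.0159 in the exact permutation test). The share of Atp5g3 was 47.9, 43.3, 45.2, 46.1 and 43.9% in the CD8+4T1 samples and 55.7, 53.9, 55, 53.9 and 55.4% in the CD8+4T1+NaAc samples. Here the order was the opposite, with means of 45.3% ± 1.81 (SD, n = 5) in CD8+4T1 and 54.8% ± 0.853 (SD, n = 5) in CD8+4T1+NaAc (exact permutation p = 0.00794, adjusted p = 0.0159). Because the shares of a family add up to the whole in each sample and Atp5g1 holds little of it, a lower Atp5g2 share nearly fixes a higher Atp5g3 share. The test of Atp5g3 is therefore not a result independent of that of Atp5g2. As levels, Atp5g2 fell (log2 fold change -0.53, SE 0.07, limma adjusted p = 0.000349) while Atp5g3 had mean levels of 93.9 ± 4.33 FPKM without and 94.6 ± 5.29 FPKM with NaAc (SD, n = 5 each) (log2 fold change 0.01, SE 0.05, limma adjusted p = 0.898). Atp5g1 fell as well (log2 fold change -0.65, SE 0.11, limma adjusted p = 0.000809) and its share was 6.33% ± 0.465 (SD, n = 5) in CD8+4T1 and 4.88% ± 0.881 (SD, n = 5) in CD8+4T1+NaAc (exact permutation p = 0.0397, adjusted p = 0.0595, and 0.00952 without CD8+4T1+NaAc replicate 1). Of the fragments of Atp5g1 and its listed pseudogenes 38.9% lay in the pseudogenes, so its level is uncertain, and 2.74% did so for Atp5g2.

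The promoters of the 3 subunit c genes are shown because their genes make one mature protein and the level of Atp5g2 fell while that of Atp5g3 was not called. Sequences are from RefSeq (GRCm38.p6), 300 bases each that start 250 bases before the listed gene start in most genes, 5′ to 3′ on the gene's strand. Capitals mark matches, on either strand, to GCGCATGC (NRF1), CCGGAAG (ETS factors such as GABP), TCAAGGTCA (ERR alpha) or AAGATGGCG (YY1).
Atp5g1 (chr11:96075582-96075881, minus strand): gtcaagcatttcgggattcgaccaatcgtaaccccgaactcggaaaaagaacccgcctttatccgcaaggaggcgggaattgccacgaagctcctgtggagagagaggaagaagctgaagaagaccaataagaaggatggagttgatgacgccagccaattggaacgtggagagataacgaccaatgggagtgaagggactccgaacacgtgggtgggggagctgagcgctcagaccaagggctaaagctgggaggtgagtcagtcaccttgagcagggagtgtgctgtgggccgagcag
Atp5g2 (chr15:102670998-102671297, minus strand): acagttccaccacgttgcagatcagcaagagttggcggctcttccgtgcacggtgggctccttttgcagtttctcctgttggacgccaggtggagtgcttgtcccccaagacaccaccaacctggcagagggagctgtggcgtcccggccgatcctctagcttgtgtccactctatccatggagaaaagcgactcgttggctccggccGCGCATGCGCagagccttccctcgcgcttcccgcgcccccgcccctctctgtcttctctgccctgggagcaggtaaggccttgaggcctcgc
Atp5g3 (chr2:73911277-73911576, minus strand): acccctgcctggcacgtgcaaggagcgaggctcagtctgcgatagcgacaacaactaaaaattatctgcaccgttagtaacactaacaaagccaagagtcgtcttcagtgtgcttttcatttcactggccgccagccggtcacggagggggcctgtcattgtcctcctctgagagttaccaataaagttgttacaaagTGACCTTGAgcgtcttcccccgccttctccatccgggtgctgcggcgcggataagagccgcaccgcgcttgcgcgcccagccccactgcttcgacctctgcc
The window of Atp5g2 held the NRF1 letters, that of Atp5g3 the ERR alpha letters, and that of Atp5g1 none of the 4 motifs.

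**Figure D4:**
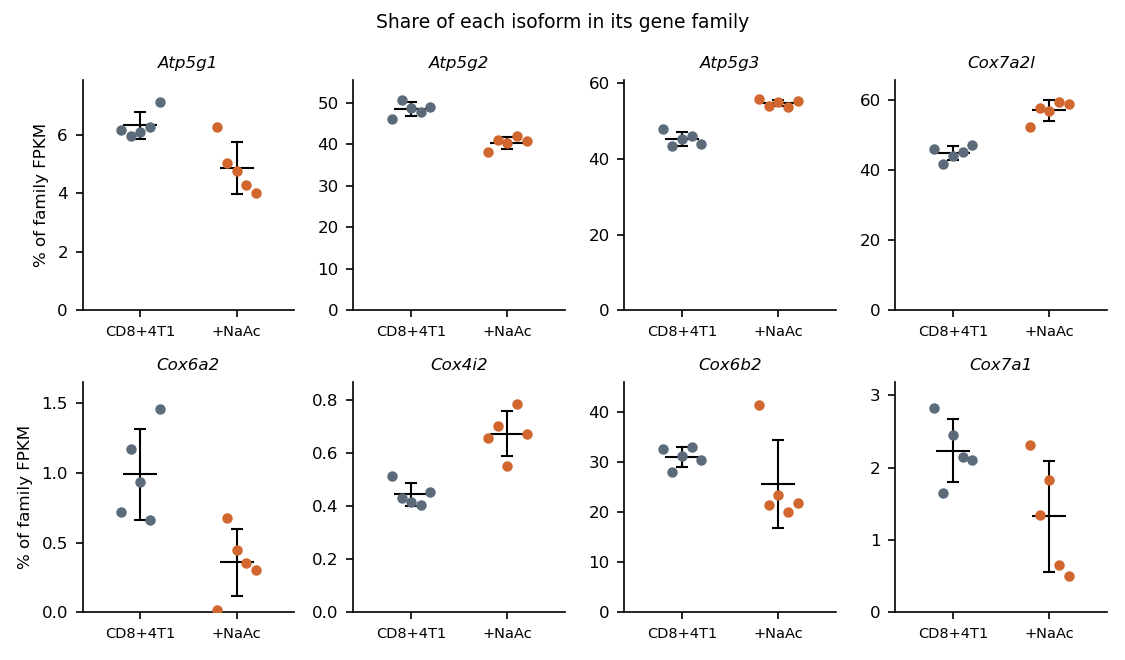
Share of each isoform in the summed FPKM of its family (percent, vertical axes start at 0) in every sample, with mean and SD (n = 5). Atp5g2 and Atp5g3, parts of one sum whose shares are not independent, are separated between the groups in opposite directions. Cox7a2l and Cox4i2 are higher in every CD8+4T1+NaAc sample, and the shares of Cox6b2 and Cox7a1 overlap, with CD8+4T1+NaAc replicate 1 the highest of its group for both.

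The other tested shares were in complex IV. Cox4i2, the lung and hypoxia form of subunit IV, had 17 to 26 fragments per sample and did not change in level by the test (log2 fold change 0.05, SE 0.12, limma adjusted p = 0.773). Its share of subunit IV was 0.445% ± 0.0440 (SD, n = 5) in CD8+4T1 and 0.674% ± 0.0840 (SD, n = 5) in CD8+4T1+NaAc, without overlap (exact permutation p = 0.00794, adjusted p = 0.0159), beside the fall of Cox4i1. Cox6b2, the form named for testis, had 77.4, 87, 93, 96.9 and 73.7 FPKM in the CD8+4T1 samples and 89.7, 45.7, 46.6, 39.4 and 45.3 FPKM in the CD8+4T1+NaAc samples. Of the CD8+4T1+NaAc values 4 lay below all CD8+4T1 values, and replicate 1 lay among them (log2 fold change -0.74, SE 0.20, limma adjusted p = 0.0133). Without replicate 1 the log2 fold change of Cox6b2 was -0.95 (limma adjusted p = 3.50e-05). Its share against Cox6b1 was 31.1% ± 2.04 (SD, n = 5) in CD8+4T1 and 25.7% ± 8.87 (SD, n = 5) in CD8+4T1+NaAc (exact permutation p = 0.230, adjusted p = 0.230), with 41.4% in replicate 1 and 20.1% to 23.4% in the others. Without that replicate the adjusted p of the share was 0.00952 in the exact permutation test.

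Cox7a1, the muscle form of subunit VIIa, had mean levels of 6.22 ± 1.10 FPKM without and 3.38 ± 1.67 FPKM with NaAc (SD, n = 5 each) (log2 fold change -1.01, SE 0.33, limma adjusted p = 0.0375). It lost its call after rescaling to equal sums (-0.83, limma adjusted p = 0.0740). It rested on 13 to 66 fragments, and its call held in 4 of 10 fits that left out 1 sample, while in the other 6 (without CD8+4T1 replicate 1, 3, 4 or 5 or CD8+4T1+NaAc replicate 4 or 5) the limma adjusted p was between 0.0605 and 0.0849. Its share was 2.23% ± 0.439 (SD, n = 5) in CD8+4T1 and 1.33% ± 0.767 (SD, n = 5) in CD8+4T1+NaAc (exact permutation p = 0.0635, adjusted p = 0.0762, and 0.0238 without CD8+4T1+NaAc replicate 1). The family also holds the general form Cox7a2 and the supercomplex factor Cox7a2l. Cox7a2 fell (log2 fold change -0.43, SE 0.09, limma adjusted p = 0.0035), while Cox7a2l had 114, 122, 136, 126 and 127 FPKM in the CD8+4T1 samples and 108, 165, 155, 161 and 169 FPKM in the CD8+4T1+NaAc samples. Replicates 2 to 5 of CD8+4T1+NaAc were above all CD8+4T1 samples and replicate 1 was below them (log2 fold change 0.26, SE 0.11, limma adjusted p = 0.0983; without replicate 1 0.38, limma adjusted p = 0.000306). The share of Cox7a2l was 44.7% ± 2.07 (SD, n = 5) in CD8+4T1 and 56.9% ± 2.90 (SD, n = 5) in CD8+4T1+NaAc and that of Cox7a2 53% ± 2.33 (SD, n = 5) in CD8+4T1 and 41.8% ± 2.22 (SD, n = 5) in CD8+4T1+NaAc, neither with overlap, a description added after the values were seen. These shares are parts of one sum as well and are not independent.

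The share of Cox6a2 in subunit VIa was 0.991% ± 0.328 (SD, n = 5) in CD8+4T1 and 0.360% ± 0.241 (SD, n = 5) in CD8+4T1+NaAc, given without a test because its level was known beforehand. Cox7b2, Cox8b, Cox8c, Ndufa4l2, the copy Ndufb11b and the second Atp5o entry were under the filter, with at most 10 fragments in any sample. The rule thus accounts for 6 untested members, 4 of them in complex IV.

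Tested members of a complex differed widely in level. Their mean FPKM over all samples ran from 1.01 to 123 in complex I, from 17.8 to 87.5 in complex II, from 29.0 to 160.1 in complex III, from 1.54 to 452 in complex IV and from 10.8 to 329 in complex V. The spread between samples of one group was similar in both groups, with a median coefficient of variation over the tested members of 10.4% in CD8+4T1 and 11.3% in CD8+4T1+NaAc. Across the 82 genes Spearman's rho with the fold change was -0.09 for the level and 0.34 for the listed length. Across 7053 protein-coding genes of at least 5 FPKM the rho with length was 0.17, and genes are not independent replicates in either case.

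The medians were lowest among the shortest genes. The comparison genes all averaged 5 FPKM or more, whereas 4 of the 82 members (Cox6a2, Cox7a1, Cox4i2 and Ndufb2) were below that level. Of 21 members up to 1000 bases long, 19 were called lower with a median log2 fold change of -0.59, and 47.2% of 176 other protein-coding genes of that length were called lower with a median of -0.29. Above that and up to 2000 bases, 19 of 32 members were lower (median -0.41), against 40.5% of other genes (median -0.19). Above 2000 and up to 4000 bases, 9 of 19 members were lower (median -0.19), against 31.5% (median -0.08), and over 4000 bases 5 of 10 (median -0.26), against 25.4% (median -0.03). The part of gene length in the fall of the members was not tested beyond these values.

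**Figure D5:**
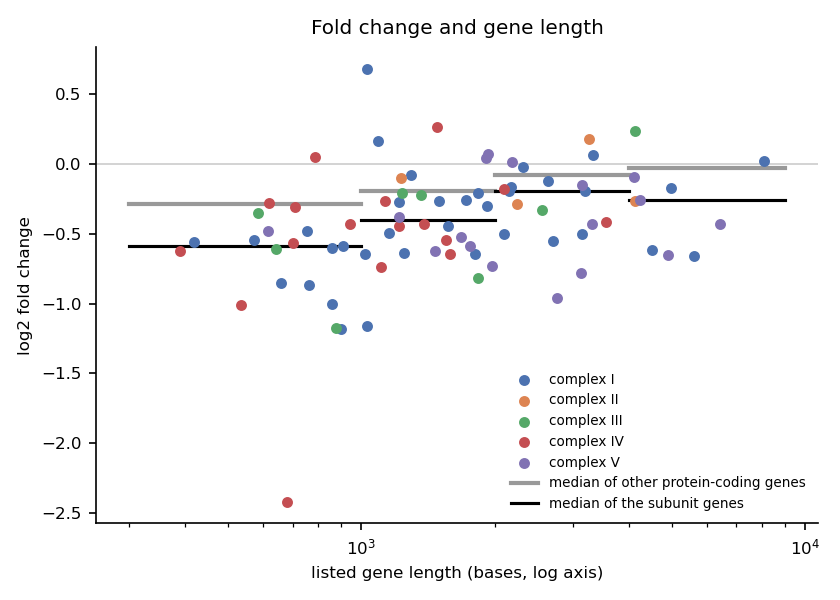
Log2 fold change (vertical axis) of the 82 tested subunit genes against their listed length (log axis), colored by complex. Black lines are the medians of the subunit genes in 4 length ranges (-0.59, -0.41, -0.19 and -0.26) and gray lines those of other protein-coding genes of at least 5 FPKM (-0.29, -0.19, -0.08 and -0.03). In each range the median of the subunit genes is the lower one.

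Promoters of the members were compared by sequence with all promoters of the same RefSeq table. Of the 88 members 69 genes had a promoter there, 74 promoters in all. The NRF1 letters were in 13.5% of member promoters and 2.71% of all 32851, the ETS letters in 23.0% and 8.86%, the ERR alpha letters in 2.70% and 0.423%, and the YY1 letters in 9.46% and 1.40%. No motif contains another, both strands were searched, and the promoters were not matched for base composition. At least 1 motif was in 39.2% of member promoters and in 12.5% of all. By gene, 21 of the 43 members called lower and 8 of the 24 not called had a motif. The following promoters are shown for a high-level member that fell (Cox6a1), the member of complex I with the largest fall (Ndufs6), and a core member of complex III that did not pass (Uqcrc1).
Cox6a1 (chr5:115348909-115349208, minus strand): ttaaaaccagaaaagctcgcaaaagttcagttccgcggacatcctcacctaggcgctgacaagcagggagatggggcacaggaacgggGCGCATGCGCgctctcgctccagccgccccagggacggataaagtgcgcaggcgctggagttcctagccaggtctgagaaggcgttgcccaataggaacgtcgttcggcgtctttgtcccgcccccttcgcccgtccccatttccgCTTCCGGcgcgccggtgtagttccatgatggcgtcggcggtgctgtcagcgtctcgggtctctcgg
Ndufs6 (chr13:73328433-73328732, minus strand): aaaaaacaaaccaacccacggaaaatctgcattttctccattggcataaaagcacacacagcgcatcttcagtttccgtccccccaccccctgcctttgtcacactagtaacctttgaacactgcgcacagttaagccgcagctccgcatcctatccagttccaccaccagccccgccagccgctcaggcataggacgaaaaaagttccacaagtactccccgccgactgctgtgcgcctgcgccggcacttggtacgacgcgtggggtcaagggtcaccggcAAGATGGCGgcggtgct
Uqcrc1 (chr9:108936398-108936697, plus strand): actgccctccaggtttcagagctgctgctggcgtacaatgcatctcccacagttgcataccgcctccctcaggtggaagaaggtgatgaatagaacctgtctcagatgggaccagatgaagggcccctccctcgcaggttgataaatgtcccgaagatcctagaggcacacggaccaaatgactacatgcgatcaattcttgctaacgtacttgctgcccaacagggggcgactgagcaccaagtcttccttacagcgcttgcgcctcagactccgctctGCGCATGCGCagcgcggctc
Cox6a1 held the NRF1 and ETS letters, Ndufs6 the YY1 letters and Uqcrc1 the NRF1 letters. These windows are single examples, and whether a motif goes with the call was not tested.

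Other genes of the pathway were called in both directions. Of 48 tested assembly factors, the proteins that insert cofactors and join subunits, 16 were called lower and 3 higher, with a median log2 fold change of -0.18. Cox16 (-0.78), Pet100 (-0.71) and Ndufaf2 (-0.70) fell, and Sdhaf1 (0.62), Foxred1 (0.43) and Cox10 (0.31) rose. After rescaling to equal sums, 6 were called lower and 12 higher. All genes tested are the background for these lists, with 19.0% called lower and 17.6% higher as deposited and 8.83% lower and 31.2% higher after rescaling, and nothing particular to a list is read from its counts. Of 19 electron carriers and coenzyme Q genes, 5 were called lower and 1 higher, and after rescaling to equal sums 3 were lower and 4 higher. Cytochrome c, Cycs, which carries electrons from complex III to complex IV, fell from 87.5 ± 5.39 to 48.1 ± 4.45 FPKM (SD, n = 5 each; log2 fold change -0.87, SE 0.07), and Coq8a, a kinase-like protein of coenzyme Q synthesis, rose by 0.67.

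Among 12 tested transcriptional regulators of the chain, Sp1 (-0.35), Nrf1 (-0.32), Gabpa (-0.30) and Tfam (-0.27), the mitochondrial DNA packaging factor, were called lower and Polrmt (0.24), the mitochondrial RNA polymerase, higher. After rescaling to equal sums none of these 12 genes was called lower and 4 were called higher, beside 31.2% of all genes called higher in that fit. Ppargc1a, a coactivator of mitochondrial genes, was below the filter. Of 8 genes for ATP export and proton leak, the carriers and pores Vdac3 (-0.48), Vdac1 (-0.28) and Slc25a5 (-0.20) fell, while the uncoupling proteins Ucp2 (0.64) and Ucp3 (0.67) and the carrier Slc25a4 (0.20) rose. After rescaling 1 of the 8 was called lower and 3 higher.

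The 13 subunits encoded in the mitochondrial genome were mostly not called. Their median log2 fold change was 0.06, with 2, mt-Atp8 and mt-Nd4l, called lower and 0 higher by limma (2 lower and 2 higher without adjustment, 1 lower and 3 higher by voom, and 1 lower and 4 higher after rescaling). mt-Co1, the catalytic subunit of complex IV, had mean levels of 3599 ± 339.7 FPKM without and 3965 ± 237 FPKM with NaAc (SD, n = 5 each) (limma adjusted p = 0.183). The difference between nuclear and mitochondrial genes was not tested.

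Reads of some members could belong to other genes. Beside those named, 19.4% of the fragments of Cox7c and its listed pseudogenes lay in the pseudogenes, 17.2% for Atp5l, 9.15% for Ndufb4, 8.66% for Atp5h and 4.10% for Uqcrb. Cox5b and Cox5b-ps are near copies between which reads could be split. Of the members described above, Ndufs6, Ndufs1, Ndufb6, Uqcrb, Cox4i1, Atp5j, Atp5md and Atp5a1 are listed as overlapping a protein-coding gene on the other strand (Mrpl36, Eef1b2, Smim27, Gm10767, Emc8, Gabpa, Taf5 and Haus1), and the strand setting of the counting is not given in the sources used here, so their values may include fragments of the partner. Further members not described one by one also overlap other coding genes.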

How the data were processed

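The authors deposited FPKM for 57825 genes in 10 samples, not pooled, beside gene length in bases. The submitters' processing notes name fastp, HISAT2 2.0.5, StringTie 1.3.3b and featureCounts 1.5.0-p3. Build and strand setting are not given in the sources used here. The listed positions are not those of GRCm38 (1430 of 52073 shared genes coincide), so only chromosomes are printed from them. FPKM times length gave whole fragments for 100% of values (within 0.1).

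FPKM are not counts, so limma 3.58.1 in R 4.3.3 was run on log2(FPKM + 0.1), with trend and robust moderation, for genes of at least 0.5 FPKM on average. It was also run on simulated data, and that outcome is not given here. The added 0.1 draws log2 changes of low genes toward 0. A fitted change can still exceed the ratio of the group means, which was 0.227 for Cox6a2 and 0.543 for Cox7a1. Members and lists were chosen with earlier results of these data known. Genes named are the 3 largest called changes per complex and direction, all of complex II, isoforms and 8 subunits set by name, such as Ndufs1, Uqcrfs1, Cox5a and Atp5b. Others are marked where they appear or given as list members. Alternatives were pseudocounts 1 and 0.01, other filters and scalings, voom, a replicate block and leaving out each sample. Some genes are not reported here.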

Additional observations from a re-analysis of the deposited data

Results flagged for a closer look

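In 96 groups of 5 values the highest or lowest sample was compared with its neighbors by Dixon's 95% criterion, which chance exceeds in about 4.8 of 96 groups, and 15 groups had a sample that stood apart. In 10 of them it was CD8+4T1+NaAc replicate 1 and in 4 CD8+4T1 replicate 1.

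Replicate 1 of CD8+4T1+NaAc was the highest of its group on the log2(FPKM + 0.1) scale for Ndufs6 (5.79), Cox6b2 (6.49), Cox6a1 (9.16) and Cox7b (6.32), and the lowest for Cox7a2l (6.76), Ndufs1 (2.51), Uqcrc1 (4.41) and Atp5a1 (7.55). It also had the highest share of Cox6b2 against Cox6b1 (41.4%) and the lowest median deviation of the complex III genes (-0.43 on the log2 scale, against -0.19 to -0.09 in the other samples of the group).

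Replicate 1 of CD8+4T1 was the lowest of its group for Uqcrq (6.74), Sdhb (5.07) and Atp5g2 (6.45) and for the median deviation of the complex II genes (-0.0753, against 0.1004 to 0.133 in the others). Replicate 5 of CD8+4T1 had the highest share of Atp5g1 among the subunit c genes (7.14%, against 5.97% to 6.27%).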

How the results depend on the processing

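No call reversed among the 35 member genes followed under up to 21 alternatives (32 genes with the filter of 5 FPKM) or the 6 isoform shares followed under leaving out samples, the block and shares of fragments, although the median of the ATP synthase head changed sign on rescaling (given above). Over the alternatives, 35 to 57 members were called lower (45 to 54 with 1 sample left out). Of all 15710 genes, 2524 to 3557 were called lower and 2369 to 3408 higher with 1 sample left out. With 1 sample left out, members called higher ranged from 0 to 4, the members' median from -0.49 to -0.36, and the medians of complexes I to V from -0.53 to -0.40, -0.21 to -0.13, -0.38 to -0.30, -0.49 to -0.39 and -0.51 to -0.37. Genes called lower then ranged from 19 to 22 in complex I, 1 to 2 in II, 6 to 6 in III, 9 to 14 in IV and 10 to 12 in V, and genes called higher from 0 to 1 in complexes I to IV and 0 to 0 in V. Isoform share differences in percentage points ranged from 0.201 to 0.259 for Cox4i2, -9.39 to -4.08 for Cox6b2, -1.15 to -0.698 for Cox7a1, -1.81 to -1.24 for Atp5g1, -8.66 to -7.46 for Atp5g2 and 9.03 to 10.2 for Atp5g3.

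Rescaling to the same total gave 6 members higher (2 in complex I and 1 in each other complex), 35 lower (0 in complex II, 3 in III, 8 in IV) and medians of -0.25 over the members and -0.31, -0.0082, -0.16, -0.25 and -0.25 for complexes I to V. Voom gave 4 higher (1 in each of complexes I to IV), 1 lower in complex II and a median of -0.39 in complex I. Over all 15710 genes voom called 2100 lower and 3990 higher. Protein-coding genes alone gave 1 higher, in complex I, beside 2742 of 11642 genes called higher in that fit. Without replicate 1 of both groups, chosen after seeing the data, 5 were higher (2 in complex I, 1 in each of II, III and IV), beside 3427 of all 15710 genes. As a share of fragments, not per length, Atp5g1 differed by -3.41 percentage points (adjusted exact permutation p = 0.0357). The cause of these shifts was not tested, beyond the sums that rescaling equalizes.

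With the replicate block, 54 members were called lower and 2 higher, 1 in complex I and 1 in complex II. Over all 15710 genes that fit called 2848 lower and 2551 higher. Under the block the share differences of 0.229 for Cox4i2, -8.05 for Atp5g2 and 9.51 for Atp5g3 had an adjusted exact permutation p of 0.0938, where 5 pairs cannot give a raw p under 0.0625. The deviations of same-numbered samples correlated between -0.0283 and 0.0694, and samples of 2 of the 5 numbers correlated best with their own number. These values cannot say whether same-numbered samples were paired, and no label says so. Replicate 1 had the fewest genes above 0 and the lowest summed FPKM in both groups. Depth limits Cox6a2, Cox7a1 and Cox4i2, which rest on 1 to 85 fragments per sample.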
